A study of Mus musculus with 32 samples.

Results

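The genes described here encode the machinery that loads and displays peptides on MHC class II molecules. They are 8 of the 55359 genes in each of the 2 deposited count tables, chosen by symbol after Ensembl identifiers had been matched to names, and all 8 were found in both tables. H2-Aa (ENSMUSG00000036594.16) and H2-Ab1 (ENSMUSG00000073421.7) encode the alpha and beta chains of the class II molecule I-A, and H2-Eb1 (ENSMUSG00000060586.12) the beta chain of I-E. Cd74 (ENSMUSG00000024610.16) encodes the invariant chain, and Ciita (ENSMUSG00000022504.11) the class II transactivator. H2-DMa (ENSMUSG00000037649.11), H2-DMb1 (ENSMUSG00000079547.5) and H2-DMb2 (ENSMUSG00000037548.16) encode the chains of the peptide-exchange molecule H2-M. The H2 genes lie on chromosome 17, Ciita on chromosome 16 and Cd74 on chromosome 18.

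Class II molecules present peptides from ingested proteins to CD4 T cells. B cells, dendritic cells and macrophages make them constitutively or on activation, and interferon gamma induces them in many other cells. The invariant chain fills the peptide groove during assembly and escorts the molecule to endosomes, where proteases cut it down to a short fragment. H2-M then exchanges that fragment for antigenic peptide, and H2-O, made mainly by B cells, restrains H2-M. CIITA binds no DNA itself. It is recruited by the RFX and NF-Y complexes, which sit on the X and Y boxes of class II promoters, and its level sets how strongly these genes are transcribed. Mice of the C57BL/6 background make no alpha chain of I-E, so the product of H2-Eb1 lacks its usual partner.

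All libraries were made from poly(A) RNA of wild type C57BL/6J male mice, 9 weeks old, and each came from either bone or gingiva. Control mice (Co) received no treatment. Ligature mice (Li) carried a silk thread round the left upper second molar, which induces periodontitis. Trauma mice (Tra) carried composite resin on the biting surface of the same tooth, and LiTra mice carried both. Every group had 4 libraries per tissue, 16 per tissue and 32 in all. The labels state neither the time between treatment and sampling nor whether each library came from a separate animal, so the p-values rest on the spread among libraries, part of which may be technical. Levels are CPM, counts relative to the library size after TMM scaling, listed in the order of replicates 1 to 4. Differences are log2 changes ± SE from edgeR's quasi-likelihood test, and an adjusted p is always Benjamini-Hochberg adjusted over every gene tested in that comparison, called under 0.05.

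Library totals ran from 38163979 to 70793037 counts in bone and from 36913075 to 50740393 in gingiva. All 8 genes passed the filter on low counts in both tissues, among 21205 bone and 20143 gingiva genes tested. Tissue identity was checked in the control libraries, where 9 of 9 bone cell markers were higher in bone and 8 of 8 oral epithelium markers were higher in gingiva. Bone libraries Co 3, Tra 3 and LiTra 1, 3 in all, were dominated by few genes: their 10 top genes held 51.2, 62.9 and 53.6% of all counts, and nasal gland genes 47.4, 29.1 and 50.9%. Without these 3 libraries edgeR called 1 class II gene in Li bone, 0 in Tra bone and 3 in LiTra bone against control, the same numbers as with them. Nasal gland genes also held 24.2% of counts in Li 2, 14.9% in Co 4 and 6.995% in Tra 1 of bone. These libraries were kept in that fit. Summed oral epithelium markers in bone ran from 19.3 CPM in Co 2 to 6101 CPM in Co 1, with 3080 CPM in Li 3. Some of the 8 class II genes can share reads with others. The use of strand in counting is not given in the sources used here. H2-DMa shares 360 exon bases with Brd2 on the opposite strand, Ciita shares 329 with Dexi on the opposite strand, and Cd74 shares 12 with Mir5107. Brd2 reached 18617 counts in a library and Dexi 1711. H2-DMb1 and H2-DMb2 are close copies: of the 100-base windows of the H2-DMb1 transcript, 179 of 1305 (13.7%) also occur in H2-DMb2, and of the 50-base windows 369 of 1355 (27.2%). The read length is not given in the sources used here, and the separate values of these 2 genes are uncertain.

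Promoter sequences are shown first because class II genes are known for the elements that their promoters share. RefSeq promoter windows of build GRCm38.p6, from 250 bases before to 50 after the start, were matched for 5 of the 8 genes, H2-Aa, H2-Eb1, H2-DMa, H2-DMb1 and H2-DMb2. H2-DMa has 2 starts, which makes 6 windows. The lines below give the 100 bases from 130 to 31 before the start, 5′ to 3′ on the gene's own strand, for the 4 genes in which a Y box core was found. Capitals mark TGATTGG, the core of the Y box, and CNGATGATG, letters in the place of the X box. A stretch without CNGATGATG, such as that of H2-Aa, may still hold an X box with other letters.
H2-Aa, chr17:34287854-34287953, minus strand: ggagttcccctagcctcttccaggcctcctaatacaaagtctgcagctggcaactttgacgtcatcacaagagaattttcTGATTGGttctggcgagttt
H2-Eb1, chr17:34305737-34305836, plus strand: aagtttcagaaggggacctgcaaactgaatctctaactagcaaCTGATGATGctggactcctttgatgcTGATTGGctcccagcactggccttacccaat
H2-DMb1, chr17:34153061-34153160, plus strand: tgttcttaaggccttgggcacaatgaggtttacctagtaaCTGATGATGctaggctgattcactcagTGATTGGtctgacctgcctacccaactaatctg
H2-DMb2, chr17:34145119-34145218, plus strand: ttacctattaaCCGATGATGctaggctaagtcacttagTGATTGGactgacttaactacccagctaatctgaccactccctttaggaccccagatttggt

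The Y box core began 50 bases before the start in H2-Aa, 61 in H2-Eb1, 63 in H2-DMb1 and 92 in H2-DMb2. Between the first letters of CNGATGATG and of TGATTGG lay 26 bases in H2-Eb1 and 27 in both H2-DMb1 and H2-DMb2. From the X box letters to the end of the Y box core, H2-DMb1 and H2-DMb2 were identical at 30 of 34 bases. Whether these letters bear on the levels of the 2 genes was not tested. Both strands of every window were searched. CTGATTGG, which contains TGATTGG and the reverse of CCAAT, was in 2 of the 6 windows and in 4.1% of all 32851 windows of this length. CCAAT was in 5 of 6 and 37.4%, and a longer X box pattern that ends in ACNGATG in 1 of 6, that of H2-DMb1, and 0.289%. TGATTGG and CNGATGATG were chosen after the windows had been read. They were in 4 of 6 and 3 of 6 windows and in 7.82 and 0.956% of all windows. Of 3 further class II genes, H2-Eb2, H2-Oa and H2-Ob, TGATTGG was in 3 of 3 windows and CNGATGATG in 0 of 3.

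In untreated mice 5 of the 8 class II genes were higher in bone than in gingiva and 0 lower, and the excess was uneven among the genes. This stands against 27.2% of 22559 genes called higher in bone. H2-DMb2 stood at 20.5, 17.9, 9.997 and 22.04 CPM in Co bone and at 1.07, 2.35, 2.90 and 2.75 CPM in Co gingiva. The libraries of the 2 tissues did not overlap, and the fitted level was 7.74-fold higher in bone (log2 2.95 ± 0.42, adjusted p = 1.4e-06). Ciita (1.91 ± 0.42, adjusted p = 0.00039), H2-DMa (1.60 ± 0.29, adjusted p = 3.4e-05), H2-DMb1 (1.33 ± 0.24, adjusted p = 3.5e-05) and Cd74 (1.24 ± 0.32, adjusted p = 0.0019) were higher as well. The 3 chain genes did not pass in edgeR, at log2 0.36 ± 0.26 for H2-Aa, 0.65 ± 0.30 for H2-Ab1 and 0.59 ± 0.27 for H2-Eb1 (adjusted p = 0.25, 0.066 and 0.062), whereas DESeq2 and limma-voom each called 7 of 8 genes higher, H2-Ab1 and H2-Eb1 included. B cell markers moved the same way: 10 of 10 were higher in Co bone, with a median log2 difference of 6.31. In bulk tissue, more cells of a type and more RNA per cell cannot be told apart.

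Levels can be compared between genes only after division by a length. The length used was the union of a gene's annotated exons, which can exceed that of the transcript made. It was 1681 bases for H2-DMb1, whose longest coding transcript has 1404, and 3798 for H2-Aa, 3448 for H2-DMa and 9535 for Ciita. The transcripts expressed were not determined, so CPM per kilobase of exon is a scale on which the order of genes depends on the annotation. On that scale, mean CPM per kilobase of exon in Co bone was 247 for Cd74, 74.3 for H2-Eb1, 58.8 for H2-Ab1, 46.1 for H2-Aa, 14.7 for H2-DMb1, 10.1 for H2-DMb2, 6.57 for H2-DMa and 2.14 for Ciita. On this scale the invariant chain was well above the chains it escorts, the H2-M genes were lower again, and the transactivator was lowest. Libraries of neighbouring genes overlapped for H2-Eb1 and H2-Ab1, H2-Ab1 and H2-Aa, and H2-DMb2 and H2-DMa. In Co gingiva the same scale gave 104 for Cd74, 49.0 for H2-Eb1, 37.2 for H2-Ab1, 35.7 for H2-Aa, 5.82 for H2-DMb1, 2.15 for H2-DMa, 1.30 for H2-DMb2 and 0.569 for Ciita. H2-DMb2 stood below H2-DMa in gingiva and above it in bone, and in both tissues the libraries of these 2 genes overlapped. In Li, Tra and LiTra bone H2-DMa also ranked above H2-DMb2. In LiTra gingiva Cd74, at 91.1 per kilobase, and H2-Eb1, at 73.0, overlapped.

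In bone the class II genes lay below control in every treated group, and the size of the difference depended on the gene. H2-DMb2 fell with the ligature alone and with both treatments, and H2-DMa and Cd74 fell with both treatments. The chain genes and H2-DMb1 did not pass in any treated group. All 8 fitted changes were below 0 in each of Li, Tra and LiTra against Co, with medians of -0.51, -0.55 and -0.60, against -0.02, 0.02 and -0.01 over all genes tested. These 3 comparisons share the same Co libraries.

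**Figure D1:**
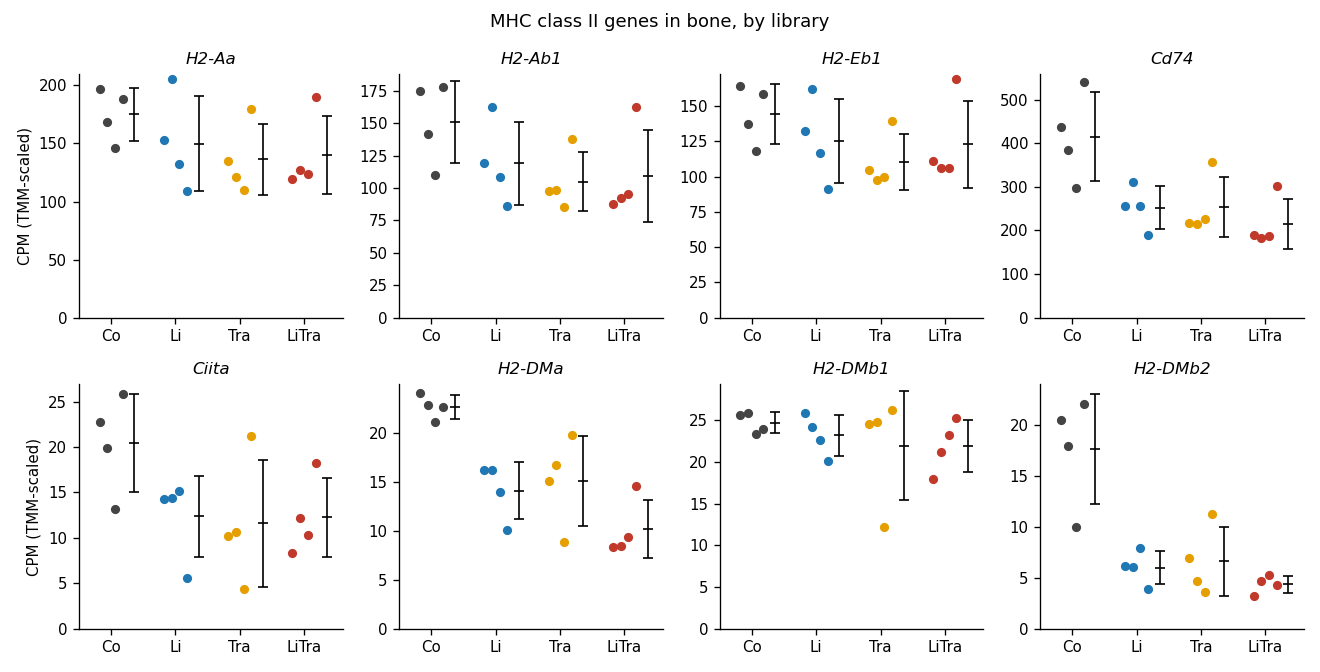
CPM (linear axes, one panel per gene) of the 8 class II genes in bone, with a dot per library, and bars for the mean ± SD of the 4 libraries of Co, Li, Tra and LiTra. H2-DMb2 in the Li and LiTra libraries lies below all Co libraries, while H2-DMb1 in Li and LiTra stays within 17.97 to 25.9 CPM beside 23.3 to 25.9 CPM in Co.

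The chain genes come first. H2-Aa, the alpha chain of I-A, was at 197, 169, 146 and 188 CPM in Co bone, 153, 205, 132 and 109 in Li, 135, 121, 110 and 180 in Tra and 119, 127, 124 and 190 in LiTra. Every treated group overlapped the controls. H2-Ab1, its beta chain partner, was at 174, 142, 110 and 178 CPM in Co, 119, 162, 108 and 86.1 in Li, 97.7, 98.6, 85.7 and 137 in Tra and 87.7, 92.3, 95.5 and 163 in LiTra. H2-Eb1 was at 164, 137, 118 and 158 CPM in Co, 133, 162, 117 and 91.0 in Li, 105, 97.6, 99.8 and 140 in Tra and 111, 106, 106 and 169 in LiTra. In all 3 genes LiTra 4 stood well above the other LiTra libraries, and the groups overlapped. None of the 3 passed in any treated group. Against Co, LiTra gave -0.32 ± 0.21 for H2-Aa, -0.46 ± 0.24 for H2-Ab1 and -0.23 ± 0.20 for H2-Eb1 (adjusted p = 0.35, 0.22 and 0.50), with 95% intervals from -0.77 to 0.13, -0.98 to 0.05 and -0.65 to 0.19. Tra gave estimates of similar size, -0.36 ± 0.21, -0.53 ± 0.24 and -0.39 ± 0.20 (adjusted p = 0.60, 0.52 and 0.55), with an interval from -1.04 to -0.01 for H2-Ab1.

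Cd74, the invariant chain, was at 438, 385, 297 and 541 CPM in Co bone, 255, 310, 256 and 189 in Li, 216, 215, 225 and 357 in Tra and 189, 183, 187 and 301 in LiTra. Most treated libraries lay below all 4 controls, and 1 library in each treated group, Li 2, Tra 4 and LiTra 4, reached above Co 3. The mean was 415 ± 102 CPM (SD, n = 4) in Co and 215 ± 57.3 CPM in LiTra. Cd74 fell 1.93-fold in LiTra (log2 -0.95 ± 0.23, adjusted p = 0.013) and did not pass in Li (-0.72 ± 0.23, adjusted p = 0.11) or Tra (-0.71 ± 0.23, adjusted p = 0.43). Without Co 4, the highest control, the LiTra change was -0.80 (adjusted p = 0.054), and over all fits leaving out 1 library the adjusted p ran from 0.0070 to 0.054.

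Ciita, the transactivator, was at 22.8, 19.9, 13.2 and 25.8 CPM in Co bone, 14.2, 14.4, 15.2 and 5.62 in Li, 10.2, 10.6, 4.36 and 21.2 in Tra and 8.31, 12.2, 10.3 and 18.3 in LiTra. Group means were lower in all treated groups, but each overlapped Co. The changes were -0.73 ± 0.42 in Li, -0.81 ± 0.42 in Tra and -0.74 ± 0.42 in LiTra, and none passed in edgeR (adjusted p = 0.42, 0.56 and 0.27). In LiTra limma-voom called Ciita lower (-0.77, adjusted p = 0.044). The 95% interval for LiTra ran from -1.64 to 0.16 and covers changes of the size seen for Cd74.

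Of the 3 H2-M genes, H2-DMa and H2-DMb2 fell in LiTra bone and H2-DMb1 did not pass. Differences between these genes were not tested. H2-DMa, the alpha chain, was at 24.1, 22.8, 21.1 and 22.6 CPM in Co bone, 16.2, 16.2, 13.9 and 10.03 in Li, 15.1, 16.7, 8.81 and 19.7 in Tra and 8.31, 8.38, 9.32 and 14.6 in LiTra. All 12 treated libraries lay below all 4 controls. It fell 2.23-fold in LiTra (-1.16 ± 0.24, adjusted p = 0.0050), and measured -0.68 ± 0.24 in Li (adjusted p = 0.14) and -0.58 ± 0.24 in Tra (adjusted p = 0.48). H2-DMb2, a beta chain gene, was at 20.5, 17.9, 9.997 and 22.04 CPM in Co, 6.10, 6.07, 7.91 and 3.86 in Li, 6.90, 4.64, 3.58 and 11.2 in Tra and 3.21, 4.64, 5.22 and 4.28 in LiTra. Li and LiTra did not overlap Co, and Tra 4 lay above Co 3. H2-DMb2 fell 2.94-fold in Li (-1.56 ± 0.35, adjusted p = 0.025) and 4.05-fold in LiTra (-2.02 ± 0.35, adjusted p = 0.0017), and measured -1.42 ± 0.35 in Tra (adjusted p = 0.41). H2-DMb1, the other beta chain gene, was at 25.6, 25.9, 23.3 and 24.0 CPM in Co, 25.9, 24.2, 22.6 and 20.1 in Li, 24.6, 24.9, 12.3 and 26.2 in Tra and 17.97, 21.2, 23.3 and 25.3 in LiTra. Its groups overlapped, and its LiTra change of -0.17 ± 0.19 (adjusted p = 0.62) had a 95% interval from -0.58 to 0.23. The interval of H2-DMb2 in the same comparison ran from -2.78 to -1.26.

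Counted over the list, edgeR called 1 of 8 lower and 0 higher in Li bone, against 0.849% of all genes called lower. In LiTra bone 3 of 8 were called lower and 0 higher, against 8.64% of all genes called lower. In Tra bone edgeR called 0 of 8 and 0% of all genes, with 4 of 8 at an unadjusted p under 0.05, 1 of 8 called by DESeq2 and 0 by limma-voom. Over all genes in Tra bone, 2023 had an unadjusted p under 0.05, DESeq2 called 160 and limma-voom 0. Genes with all treated libraries below all controls were 2 of 8 in Li (5.57% of all genes), 1 of 8 in Tra (3.53%) and 2 of 8 in LiTra (13.9%). The H2-DMb2 call in Li was lost in turn without Co 1, Co 2, Co 4, Li 1, Li 2 or Li 4 (adjusted p up to 0.094), and its change then ran from -1.75 to -1.39 over all fits leaving out a library. With library totals as the only scaling, the H2-DMb2 change in Li was -1.48 and did not pass (adjusted p = 0.9999). With that scaling the changes in LiTra were -1.998 for H2-DMb2, -1.09 for H2-DMa and -0.92 for Cd74, and none passed (adjusted p = 0.19, 0.51 and 0.60).

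Markers of other cells moved in the same bone libraries. The summed level of 10 B cell markers was 437, 409, 280 and 447 CPM in Co bone, 104, 71.7, 168 and 44.3 in Li, 153, 161, 36.8 and 227 in Tra and 47.0, 34.5, 66.2 and 34.4 in LiTra. No treated library reached the lowest control. Of the 10 markers, 7 fell in Li (0.849% of all genes), 0 in Tra (0%) and 10 in LiTra (8.64%). Their median log2 changes were -2.07, -1.42 and -3.24. Pax5, which fixes B cell identity, fell by 3.24 ± 0.53 in LiTra (adjusted p = 0.0012), and Cd22, a B cell inhibitory receptor, by 3.27 ± 0.47 (adjusted p = 0.00058). None of these markers was at 0 in all 4 libraries of a bone group. In LiTra bone 7 of 7 erythroid genes and 4 of 8 T cell markers fell too, against 8.64% of all genes. So did 2 of 7 neutrophil markers. The part of these cells in the class II changes was not tested.

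**Figure D2:**
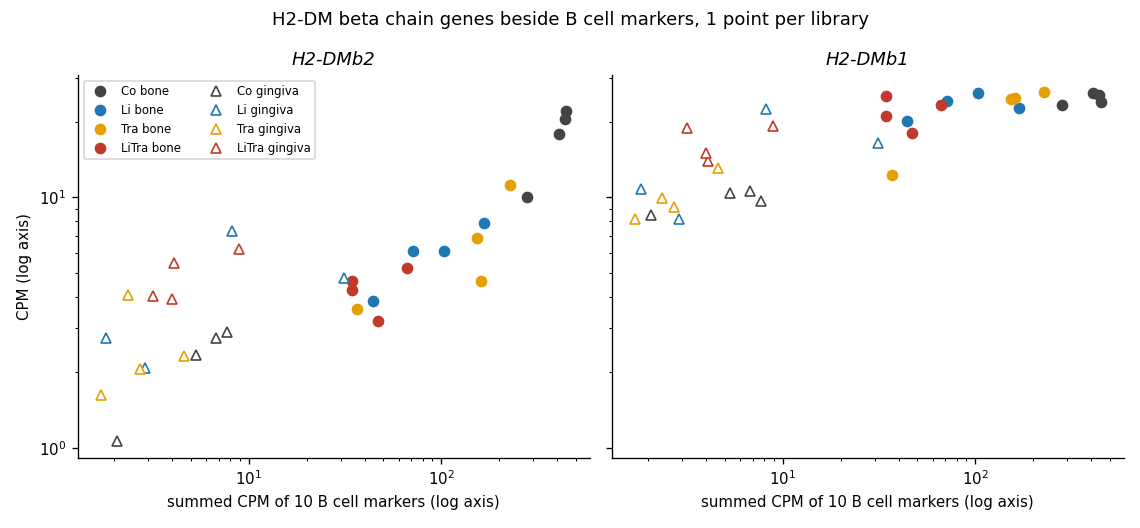
H2-DMb2 and H2-DMb1 (CPM) against the summed CPM of 10 B cell markers, both axes log scaled, with filled circles for the 16 bone libraries and open triangles for the 16 gingiva libraries. The Co bone libraries, at 280 to 447 CPM of B cell markers, hold 9.997 to 22.04 CPM of H2-DMb2 beside 3.21 to 11.2 CPM in treated bone, and H2-DMb1 in bone spans only 12.3 to 26.2 CPM over the whole range.

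The 3 further class II genes that do not belong to the 8 can be set beside them. H2-Ob, the beta chain of H2-O, was at 35.3, 31.1, 24.3 and 39.5 CPM in Co bone, 7.93, 4.37, 13.8 and 4.53 in Li, 13.8, 9.23, 4.45 and 21.7 in Tra and 3.99, 3.20, 4.47 and 4.51 in LiTra. Every treated library was below every control. It fell in Li (-2.08 ± 0.44, adjusted p = 0.019) and LiTra (-3.01 ± 0.45, adjusted p = 0.00079), and measured -1.40 ± 0.43 in Tra (adjusted p = 0.42). H2-Oa, its alpha chain, fell in LiTra (-1.97 ± 0.55, adjusted p = 0.025). H2-Eb2, a homologue of H2-Eb1, measured -1.64 ± 0.63 in LiTra and did not pass (adjusted p = 0.090). In gingiva none of these 3 passed against Co in Li, Tra or LiTra, with log2 changes from -0.98 to 0.79.

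Adding overload to the ligature in bone, LiTra against Li, moved none of the 8 genes past the test. The changes ran from -0.47 to -0.01 with a median of -0.11. EdgeR called 0 of 8 and 0% of all genes, and 0 of 8 had an unadjusted p under 0.05, with 0 called by DESeq2 and 0 by limma-voom. Over all genes 1352 had an unadjusted p under 0.05, and DESeq2 called 106 and limma-voom 0. H2-DMa, the largest, measured -0.47 with a 95% interval from -0.98 to 0.04, and H2-DMb2 -0.46 with an interval from -1.19 to 0.27. LiTra against Tra, the ligature's effect in overloaded teeth, gave changes from -0.60 to 0.16. There edgeR called 0 of 8 against 5.56% of all genes. At an unadjusted p under 0.05 stood 1 of 8, with 0 called by DESeq2 and 1 by limma-voom. Of all genes, 19.5% had an unadjusted p under 0.05, and DESeq2 called 2397 and limma-voom 3299. For the interaction, which is LiTra minus Tra set against Li minus Co, the estimates ran from 0.09 to 0.95, and edgeR called 0 of 8 and 0% of all genes. None of the 8 had an unadjusted p under 0.05 there, and DESeq2 and limma-voom called 0. Over all genes 644 had an unadjusted p under 0.05 in the interaction, and DESeq2 called 8 and limma-voom 0.

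In gingiva the differences went the other way where both treatments were combined. Ciita and H2-DMb1 rose in LiTra against Co, while Cd74 did not pass and lay slightly below 0. The ligature alone gave 8 of 8 fitted changes above 0, with a median of 0.45 against 0.00 over all genes, and none passed. Overload alone gave 3 above and 5 below 0, with a median of -0.13 against -0.01.

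**Figure D3:**
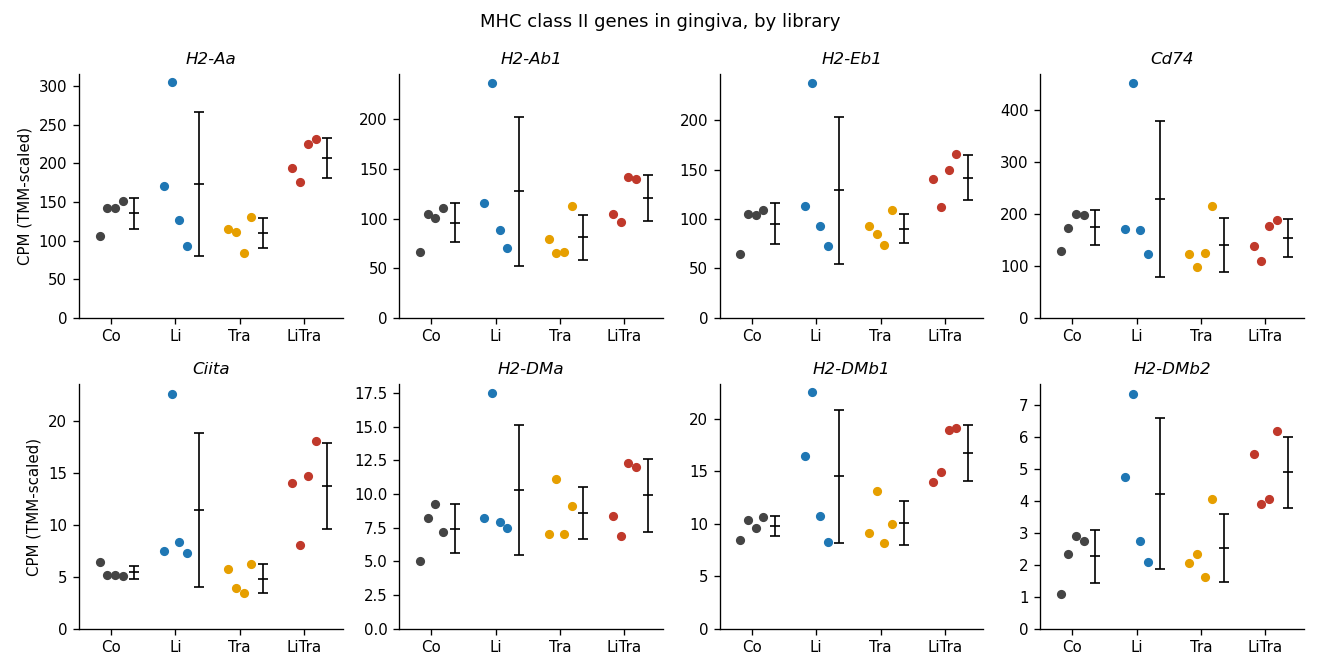
CPM (linear axes, one panel per gene) of the 8 class II genes in gingiva, with a dot per library, and bars for the mean ± SD of the 4 libraries of Co, Li, Tra and LiTra. The wide Li bars come from Li 2, the highest Li library for every gene, and the LiTra libraries of Ciita and H2-DMb1 lie above all Co libraries.

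Ciita was at 6.39, 5.15, 5.13 and 5.05 CPM in Co gingiva, 7.51, 22.6, 8.35 and 7.27 in Li, 5.71, 3.88, 3.43 and 6.26 in Tra and 14.1, 8.10, 14.7 and 18.1 in LiTra. All Li and all LiTra libraries lay above all controls, and Tra overlapped Co. The mean was 5.43 ± 0.64 CPM (SD, n = 4) in Co and 13.7 ± 4.14 CPM in LiTra. Ciita rose 2.53-fold in LiTra (1.34 ± 0.35, adjusted p = 0.014), and measured 1.07 ± 0.35 in Li (adjusted p = 0.075). Without Li 2 the Li change was 0.50 (adjusted p = 0.32), and over all fits leaving out 1 library the adjusted p ran from 0.047 to 0.32.

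H2-Aa was at 105, 142, 143 and 151 CPM in Co gingiva, 171, 305, 127 and 92.7 in Li, 115, 111, 83.4 and 131 in Tra and 195, 176, 225 and 232 in LiTra. H2-Ab1 was at 66.7, 105, 100.4 and 111 CPM in Co, 115, 237, 88.7 and 70.1 in Li, 79.4, 65.2, 66.2 and 113 in Tra and 105, 97.0, 142 and 139 in LiTra. H2-Eb1 was at 64.1, 105, 104 and 109 CPM in Co, 113, 238, 92.6 and 72.3 in Li, 92.5, 85.3, 73.6 and 109 in Tra and 140.3, 112, 149 and 166 in LiTra. All LiTra libraries of H2-Aa and H2-Eb1 exceeded all controls, those of H2-Ab1 did not, and Li 2 was above every other library for all 3. LiTra against Co gave 0.61 ± 0.27 for H2-Aa, 0.34 ± 0.31 for H2-Ab1 and 0.57 ± 0.29 for H2-Eb1, and none passed (adjusted p = 0.12, 0.49 and 0.18). Without Li 2, whose spread enters the shared estimate, H2-Aa (adjusted p = 0.026), H2-Eb1 (0.038) and H2-DMb2 (0.040) passed in this comparison. Over all fits leaving out 1 library the adjusted p of H2-Aa ran from 0.026 to 0.27, of H2-Eb1 from 0.038 to 0.38 and of H2-DMb2 from 0.040 to 0.16.

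Cd74 in gingiva was at 128, 172, 201 and 198 CPM in Co, 171, 452, 170.0 and 122 in Li, 123, 97.0, 125 and 215 in Tra and 138, 109, 176 and 189 in LiTra. All groups overlapped. Its LiTra change was -0.19 ± 0.35 (adjusted p = 0.75), with a 95% interval from -0.94 to 0.56, beside 0.61 for H2-Aa in the same libraries.

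Among the H2-M genes, H2-DMb1 was at 8.47, 10.4, 9.63 and 10.6 CPM in Co gingiva, 16.5, 22.6, 10.8 and 8.22 in Li, 9.16, 13.1, 8.21 and 9.94 in Tra and 13.9, 14.97, 18.9 and 19.2 in LiTra. LiTra did not overlap Co. It rose 1.71-fold in LiTra (0.78 ± 0.25, adjusted p = 0.038), a call that was lost without any 1 of the 4 Co libraries or of LiTra 2, 3 and 4 (adjusted p up to 0.098). H2-DMb2 was at 1.07, 2.35, 2.90 and 2.75 CPM in Co, 4.74, 7.34, 2.73 and 2.09 in Li, 2.07, 2.33, 1.63 and 4.07 in Tra and 5.47, 3.91, 4.05 and 6.19 in LiTra. Its LiTra libraries also lay above all controls, and the change was 1.11 ± 0.41 (adjusted p = 0.062). H2-DMa was at 5.03, 8.24, 9.23 and 7.17 CPM in Co, 8.21, 17.5, 7.91 and 7.44 in Li, 7.04, 11.1, 7.03 and 9.09 in Tra and 8.34, 6.90, 12.3 and 12.0 in LiTra. These groups overlapped, and the LiTra change was 0.42 ± 0.29 (adjusted p = 0.35).

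Counted over the list, edgeR called 2 of 8 higher and 0 lower in LiTra gingiva, against 11.4% of all genes called higher. In Li gingiva it called 0 of 8 against 7.49% of all genes. There 3 of 8 had an unadjusted p under 0.05, with 1 called by DESeq2 and 0 by limma-voom. Of all genes, 23.9% had an unadjusted p under 0.05 in Li gingiva, and DESeq2 called 2755 and limma-voom 1013. In Tra gingiva edgeR called 0 of 8 and 0% of all genes. None of the 8 had an unadjusted p under 0.05 there, and DESeq2 and limma-voom called 0. Over all genes in Tra gingiva 1323 had an unadjusted p under 0.05, and DESeq2 called 92 and limma-voom 4. Libraries lay wholly above Co for 1 of 8 genes in Li (8.28% of all genes) and for 5 of 8 in LiTra (14.5%). Without Li 2 the Li changes of H2-Aa, H2-Ab1, H2-Eb1 and Cd74 were -0.06, -0.07, -0.04 and -0.18, so their direction rested on that library.

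LiTra against Tra, the ligature's effect in overloaded teeth, gave 8 of 8 changes above 0 in gingiva, beside a median of -0.01 over all genes. EdgeR called 2 of 8 higher, against 9.36% of all genes. Ciita rose 2.85-fold (1.51 ± 0.36, adjusted p = 0.0096) and H2-Aa 1.88-fold (0.91 ± 0.27, adjusted p = 0.031). The LiTra and Tra libraries did not overlap for H2-Aa, H2-Eb1, Ciita and H2-DMb1, 4 of 8, against 12.4% of all genes. The H2-Aa call was lost without Tra 1, 2 or 3 or LiTra 1, 3 or 4 (adjusted p up to 0.089). LiTra against Li gave changes from -0.58 for Cd74 to 0.26 for Ciita, and edgeR called 0 of 8 against 0.0844% of all genes. In that comparison 0 of 8 had an unadjusted p under 0.05, and DESeq2 and limma-voom called 0. Of all genes, 18.5% had an unadjusted p under 0.05 there, and DESeq2 called 1413 and limma-voom 434. The interaction ran from -0.26 to 0.55, with 0 of 8 and 0% of all genes called by edgeR, 0 of 8 at an unadjusted p under 0.05, and 0 by DESeq2 and limma-voom. Over all genes in the interaction 2289 had an unadjusted p under 0.05, and DESeq2 called 183 and limma-voom 0.

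The difference between tissues was tested directly in a fit of all 32 libraries over 22559 genes. For the ligature alone, the change in bone minus that in gingiva was below 0 for 8 of 8 genes, beside a median of -0.04 over all genes tested. EdgeR called 1, H2-DMb2 (-2.45 ± 0.56, adjusted p = 0.022), against 0.683% of all genes called lower. That call was lost without Co bone 4, Co gingiva 1 or Li gingiva 2 (adjusted p up to 0.080). For both treatments together 8 of 8 were again below 0, beside a median of 0.03 over all genes tested. The 8 genes are correlated over the same libraries, so their signs are not separate results. EdgeR called 3, against 6.68% of all genes. These were H2-DMb2 (-3.12 ± 0.56, adjusted p = 0.0013), H2-DMa (-1.56 ± 0.40, adjusted p = 0.011) and Ciita (-2.07 ± 0.58, adjusted p = 0.019). H2-DMb1 (-0.94 ± 0.33, adjusted p = 0.064), H2-Aa (-0.92 ± 0.37, adjusted p = 0.10) and Cd74 (-0.74 ± 0.45, adjusted p = 0.31) did not pass, nor did H2-Ab1 or H2-Eb1, both at -0.79. The comparisons for Li and LiTra share their Co libraries in each tissue. With library totals as the only scaling none of the tissue differences passed, with H2-DMb2 at -2.45 for Li and -3.19 for LiTra.

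**Figure D4:**
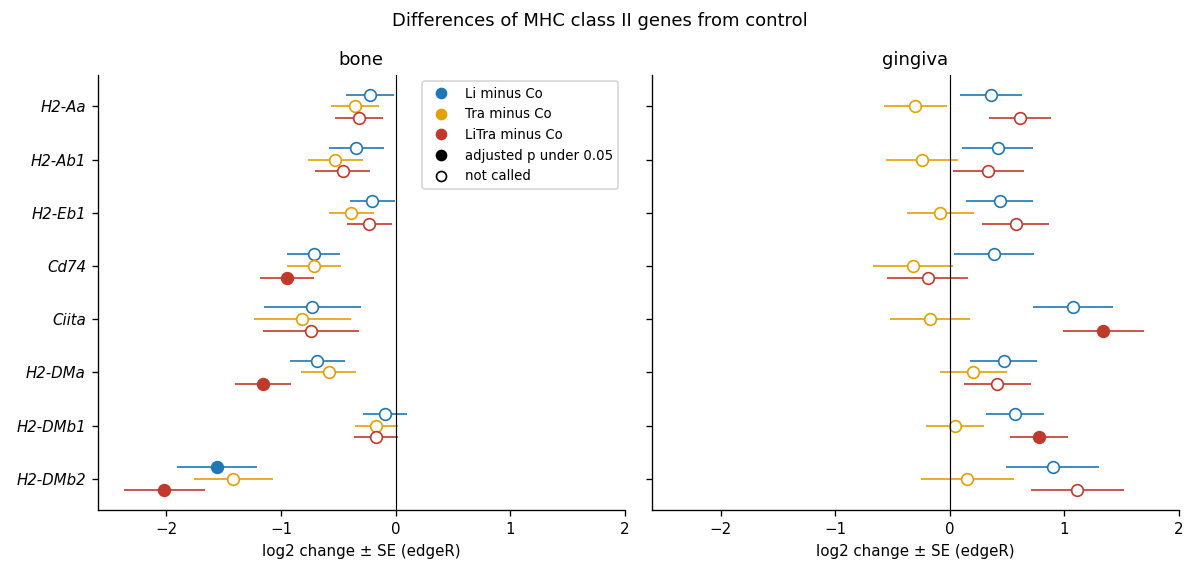
Log2 change ± SE against Co of the 8 class II genes in Li, Tra and LiTra, bone and gingiva in separate panels, with filled symbols for an adjusted p under 0.05 in edgeR. All bone estimates lie below 0, H2-DMb2 in LiTra lowest at -2.02, and in gingiva the filled symbols are Ciita at 1.34 and H2-DMb1 at 0.78 in LiTra.

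Ratios of counts within a library remove its scaling and show how unevenly the genes moved. They were chosen after the values had been seen and are given as a description. Reads of Cd74 per read of H2-Aa were 2.22, 2.28, 2.04 and 2.87 in Co bone, 1.67, 1.51, 1.94 and 1.73 in Li, 1.61, 1.77, 2.04 and 1.99 in Tra and 1.59, 1.44, 1.51 and 1.58 in LiTra. Li and LiTra lay wholly below Co. In gingiva the ratio was 1.21, 1.21, 1.40 and 1.31 in Co, 0.997, 1.48, 1.34 and 1.318 in Li, 1.07, 0.876, 1.501 and 1.64 in Tra and 0.708, 0.618, 0.781 and 0.815 in LiTra. LiTra was thus below Co in both tissues without overlap. Over the 16 bone libraries there were 1.06 to 1.38 reads of H2-Aa per read of H2-Ab1 and 1.07 to 1.29 per read of H2-Eb1. Reads of H2-Ab1 per read of H2-Eb1 ran from 0.789 to 1.12 in bone and from 0.748 to 1.04 in gingiva. In gingiva H2-Aa per H2-Ab1 ran from 1.16 to 1.85, with LiTra at 1.59 to 1.85 above Co at 1.36 to 1.58 without overlap. H2-Ab1 per H2-Eb1 was 0.748 to 0.948 in LiTra gingiva, below Co at 0.970 to 1.04.

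The H2-M beta chain genes were set against each other in the same way. Reads of H2-DMb1 per read of H2-DMb2 were 1.25, 1.45, 2.33 and 1.09 in Co bone, 4.25, 3.98, 2.86 and 5.21 in Li, 3.56, 5.37, 3.42 and 2.34 in Tra and 5.6, 4.56, 4.46 and 5.91 in LiTra. Every treated bone library was above every control, but Tra 4 (2.34) and Co 3 (2.33) were nearly equal. In gingiva the ratio was 7.93, 4.43, 3.32 and 3.86 in Co, 3.47, 3.07, 3.94 and 3.94 in Li, 4.43, 5.62, 5.04 and 2.44 in Tra and 2.55, 3.83, 4.67 and 3.10 in LiTra. There all groups overlapped, and most libraries lay in the range of treated bone. The summed B cell markers in Co gingiva were 2.06 to 7.69 CPM, against 280 to 447 CPM in Co bone.

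**Figure D5:**
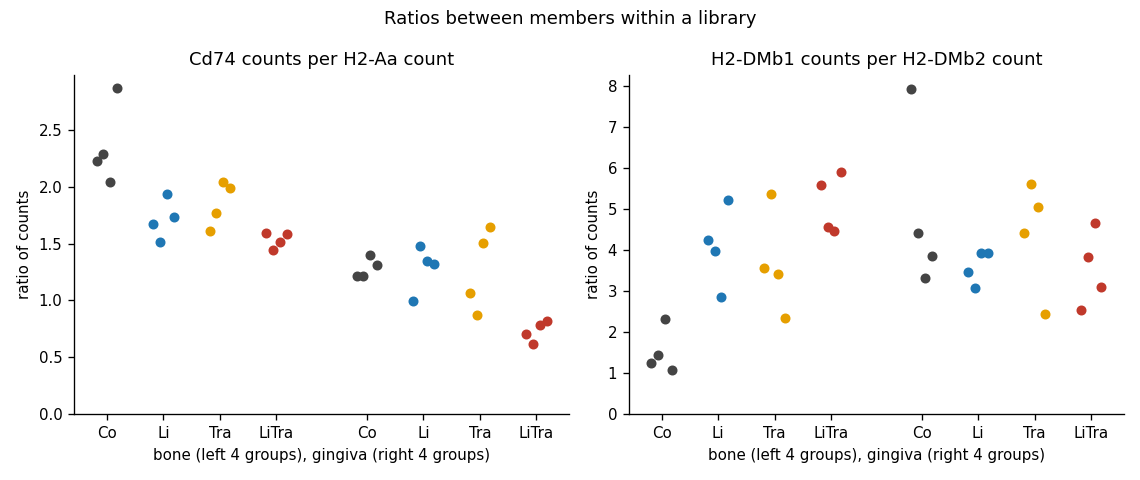
Reads of Cd74 per read of H2-Aa and of H2-DMb1 per read of H2-DMb2 in each library (linear axes), with the bone groups Co, Li, Tra and LiTra on the left and the gingiva groups on the right. Cd74 per H2-Aa in LiTra lies below Co in both tissues, and H2-DMb1 per H2-DMb2 lies at 1.09 to 2.33 in Co bone and at 2.34 to 5.91 in treated bone.

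Genes that act with class II were counted from lists chosen by their role, with earlier results of these data known. Counts are set beside the share of all genes called in the same direction. Of 7 promoter factors of the RFX and NF-Y complexes and their partners, 0 changed in Li or Tra bone, and 2 fell in LiTra bone (8.64%): Nfyb, an NF-Y subunit (-0.47 ± 0.12, adjusted p = 0.013), and Rfxank, an RFX subunit (-0.36 ± 0.11, adjusted p = 0.034). In gingiva edgeR called 0 of 7 in Li, Tra and LiTra. Of 9 genes that act on class II loading and turnover, mostly lysosomal proteases with the ubiquitin ligase gene Marchf1 among them, 2 rose in Li bone (2.66% of all genes), 5 in LiTra bone (8.29%), 5 in Li gingiva (5.19%) and 6 in LiTra gingiva (11.4%), and 0 fell in these comparisons. Ifi30, the lysosomal thiol reductase, rose in all 4, by 1.12 ± 0.22 and 1.29 ± 0.22 in Li and LiTra bone and by 1.26 ± 0.13 and 1.4996 ± 0.13 in Li and LiTra gingiva. Ctsl, cathepsin L, rose in bone (0.61 ± 0.11 in Li, 0.74 ± 0.11 in LiTra), and Ctsb, cathepsin B, in gingiva (1.03 ± 0.14 and 1.17 ± 0.14). In LiTra bone Ifi30 and Ctsl were higher while Cd74 and H2-DMa were lower.

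Of 8 genes of the interferon gamma axis, which induces Ciita, 7 passed the filter. Ifng itself stayed under 1 CPM in all libraries. In bone 1 rose in LiTra (8.29% of all genes), the receptor gene Ifngr2 (0.59 ± 0.18, adjusted p = 0.037), and 0 changed in Li or Tra. In gingiva 3 rose in Li (5.19%) and 5 in LiTra (11.4%), among them Ifngr1 (0.73 ± 0.19 and 1.02 ± 0.19), the kinase gene Jak1 (0.46 ± 0.11 and 0.65 ± 0.11) and, in LiTra, the transcription factor gene Irf1 (0.98 ± 0.24, adjusted p = 0.010). Of 7 ligands that costimulate or restrain T cells, 4 rose in LiTra gingiva (11.4%), among them Cd274 (2.62 ± 0.55, adjusted p = 0.0041), Cd80 (1.98 ± 0.47, adjusted p = 0.0081) and Cd86 (1.22 ± 0.35, adjusted p = 0.022). In LiTra bone Cd274 (1.16 ± 0.27) and Cd80 (1.25 ± 0.39) rose and Icosl fell (-1.43 ± 0.28). Of 11 class I presentation genes, 3 fell in LiTra bone (8.64%), the peptide transporter genes Tap1 (-0.77 ± 0.24) and Tap2 (-0.85 ± 0.20) and the class I heavy chain H2-K1 (-0.46 ± 0.13), and 1 rose in LiTra gingiva (11.4%), the peptide-trimming Erap1 (0.38 ± 0.13, adjusted p = 0.049).

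Markers of other antigen-presenting cells stood as follows beside the gingiva results. The summed level of 12 monocyte and macrophage markers was 204 to 262 CPM in Co gingiva, 258 to 409 in Tra, 429.5 to 861 in Li and 457 to 629.9 in LiTra. Of these, 6 rose in Li (5.19% of all genes) and 8 in LiTra (11.4%). Among them Csf1r, the macrophage growth factor receptor, measured 1.86 ± 0.25 in Li and 1.94 ± 0.25 in LiTra. Li 2, with the highest class II levels, was also the highest Li library for these markers, at 861 CPM, and for 12 dendritic and Langerhans cell markers, at 116 CPM beside 32.7 to 58.5 in the other Li libraries. Dendritic and Langerhans cell markers summed to 39.2 to 50.7 CPM in Co and 57.7 to 81.8 in LiTra gingiva, and 1 of 12, the integrin gene Itgax, rose in LiTra (1.19 ± 0.40, adjusted p = 0.041), against 11.4% of all genes. Cd207, a Langerhans cell marker, fell in LiTra against Tra gingiva (-1.66 ± 0.35, adjusted p = 0.0056). B cell markers summed to 3.17 to 8.94 CPM in LiTra gingiva, with 8 of 10 under 1 CPM in all 4 libraries, and to 31.4 CPM in Li 1. Neutrophil markers rose for 2 of 7 in Li gingiva (5.19% of all genes) and 3 of 7 in LiTra gingiva (11.4%). The summed level of 8 oral epithelium markers was 72735 to 91086 CPM in Co gingiva and 43626 to 57827 in LiTra, and stood at 44062, 39574, 84129 and 85338 in Li. That of 5 endothelial markers was 122 to 149 CPM in Co and 244 to 335 in LiTra. For both lists LiTra did not overlap Co. In bone, monocyte and macrophage markers summed to 772 to 1126 CPM in Co and 820 to 1267 in LiTra, and dendritic cell markers to 81.3 to 106 and 56.3 to 87.5. Single markers changed in both directions in LiTra bone, where 8.29% of all genes were called higher and 8.64% lower. Cd68 (1.51 ± 0.28, adjusted p = 0.0022) and Csf1r (0.88 ± 0.23, adjusted p = 0.018) rose. The chemokine receptor gene Cx3cr1 (-1.29 ± 0.25, adjusted p = 0.0028) and Siglech, a plasmacytoid dendritic cell marker (-2.12 ± 0.45, adjusted p = 0.0055), fell. The part of these cells in the class II values was not tested.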

How the data were processed

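Whole-number gene counts were deposited by the authors, 1 table per tissue. Per the submitters' processing notes, the tools included DESeq2 1.32.0, StringTie 2.1.7, HISAT2 2.2.1, FastQC 0.11.9 and Trimmomatic 0.39, with build GRCm39. How reads were counted, strand included, is not given in the sources used here. Columns lettered CR were read as the composite resin groups, and 0 columns were left unmapped. Identifiers were matched to GENCODE M21 symbols (52083 of 55359), and exon lengths were taken from that annotation.

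Counts were analysed in R 4.3.3 with edgeR 4.0.16 (filterByExpr, minimum count 10 and minimum total 15, TMM, quasi-likelihood test, two-sided), with all 16 libraries of a tissue, or all 32, in 1 fit. Genes were called at an adjusted p under 0.05. No pair of libraries held identical values (0 pairs). Named were the 8 genes, H2-Eb2, H2-Oa and H2-Ob, and up to 4 called genes with the smallest p per list and comparison. Alternatives used limma 3.58.1 (voom with quality weights), DESeq2 1.42.0, other scalings, filters and thresholds, a replicate block, the compared groups alone, and fits leaving out libraries. The genes and lists were chosen with earlier results of these data known. The fits were tested on simulated counts.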

Additional observations from a re-analysis of the deposited data

Results flagged for a closer look

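Each gene was checked in each group of 4 libraries for a library far from the other 3, by Dixon's ratio of gap to range above its 95% critical value. Of 64 such sets 13 held one, and chance alone gives about 1 in 20. In LiTra bone 1 library, LiTra 4, stood apart for 5 genes, at 190.3 CPM for H2-Aa, 162.6 for H2-Ab1, 169.2 for H2-Eb1, 301 for Cd74 and 14.6 for H2-DMa. Without it Cd74, H2-DMa and H2-DMb2 were still called lower in LiTra bone. In Tra bone, Cd74 was high in Tra 4 at 357.3 CPM and H2-DMb1 low in Tra 3 at 12.25 CPM. Ciita was low in Li 4 of bone at 5.616 CPM. Li 2 of gingiva was high for Cd74 at 451.8 CPM, Ciita at 22.6 CPM and H2-DMa at 17.51 CPM, and in Co 1 of gingiva H2-Eb1 was low at 64.08 CPM and Ciita high at 6.387 CPM.

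The response differed between tissues by the test of the difference itself, bone minus gingiva, for H2-DMb2 in Li (-2.45 on the log2 scale), and for H2-DMb2 (-3.124), H2-DMa (-1.557) and Ciita (-2.066) in LiTra. The part of cell type makeup in these differences was not tested.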

How the results depend on the processing

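Over 752 single-gene values under another setting, 693 kept their direction and their side of the threshold. Of the others, 18 lost a call, 37 gained one and 4 changed sign. These values cover the comparisons against Co, those between tissues, and LiTra against Tra in gingiva. The setting of an adjusted p under 0.01 kept the main fit, so it could only lose calls, and did so for 8 values. The numbers of the 8 genes called moved as follows. In bone, Li against Co gave 1, but 0 at an adjusted p under 0.01, 0 with library totals as the only scaling, 2 with limma-voom and 3 with DESeq2. Tra against Co gave 1 with DESeq2, LiTra against Co 0 with library totals and LiTra against Tra 1 with limma-voom. In gingiva, Li against Co gave 1 with DESeq2. LiTra against Co gave 0 at an adjusted p under 0.01, 1 without a filter on low counts, 4 with limma-voom and 5 with only the compared groups in the fit. LiTra against Tra gave 1 at an adjusted p under 0.01 and 4 with only the compared groups. The tissue difference for Li gave 0 at an adjusted p under 0.01, 0 with library totals, 3 with DESeq2 and 2 without Co 3, Tra 3 and LiTra 1 of bone. That for LiTra gave 1 at an adjusted p under 0.01, 0 with library totals and 6 with limma-voom. The cause was not tested.

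Values that changed sign were H2-DMb1 in Li bone (0.040) and in Tra gingiva (-0.014), both with library totals, and H2-Aa (-0.036) and Cd74 (-0.058) in Li gingiva with limma-voom. Library totals shifted the median of all genes in Li bone from -0.02 to 0.13.

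Leaving out 1 library at a time gave counts of 0 to 1 for Li and 2 to 3 for LiTra against Co in bone, 0 to 1 for LiTra against Tra in bone, 0 to 2 for Li and 1 to 5 for LiTra against Co in gingiva, and 1 to 4 for LiTra against Tra in gingiva. It gave 0 to 2 and 3 to 5 for the tissue differences of Li and LiTra, 5 to 7 for Co bone against Co gingiva, and 0 to 0 for the others. Signs changed for H2-DMb1 in Tra bone (-0.27 to 0.027), and in Li gingiva for H2-Aa (-0.059 to 0.58), H2-Ab1 (-0.068 to 0.64), H2-Eb1 (-0.042 to 0.65) and Cd74 (-0.18 to 0.61). They also changed in Tra gingiva for H2-Eb1 (-0.23 to 0.0035), H2-DMb1 (-0.10 to 0.13) and H2-DMb2 (-0.17 to 0.32), and for Cd74 in LiTra against Tra gingiva (-0.0051 to 0.42).

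The number of all genes called ranged over the alternatives from 5 to 1904 in Li bone (745 as reported), 12 to 6758 in LiTra bone (3589), 337 to 2755 in Li gingiva (1509) and 2052 to 5817 in LiTra gingiva (4608). Other ranges were 0 to 160 for Tra bone (0), 0 to 92 for Tra gingiva (0), 0 to 106 for LiTra against Li in bone (0), 0 to 1413 in gingiva (17), 5 to 3299 for LiTra against Tra in bone (1179) and 1485 to 4929 in gingiva (3787). The tissue differences ranged from 0 to 1488 for Li (461) and 17 to 5003 for LiTra (2768), and Co bone against Co gingiva from 8297 to 13739 (12085).

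Libraries of the same number had deviations with a median r of -0.085 in bone, 0.011 in gingiva and 0.028 across tissues, so the numbers were not taken to pair them. With the replicate block Li bone had 0 genes called, with H2-DMb2 at -1.50 (adjusted p = 0.062), and every other call among the 8 genes was unchanged. Fits of only the compared groups were not run for interactions and tissue differences, and leaving out the 3 bone libraries bears on no comparison within gingiva. The lowest levels rest on few reads: H2-DMb2 had 44 to 346 counts per gingiva library.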

Other observations

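Other genes were ranked by how closely their log2 CPM followed the mean of the 8 class II genes over the 16 libraries of a tissue, as a description. In bone the closest were Fmnl1 (r = 0.92), Sh2d3c, Il17ra and Gimap9 (0.91 each), and Ccl6, Irf5, Tlr9 and Il21r (0.90 each). In gingiva they were Myo1g (0.95), Il2rb (0.93), Fmnl1 and Il21r (0.92 each), Rgs1 and Tbc1d1 (0.91 each), and Itgb7 and Akap2 (0.90 each). The libraries share their groups and depth, so these values hold group differences as well.

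The genes also differed among themselves in this measure. In bone H2-Aa followed H2-Ab1 and H2-Eb1 (r = 0.97 each) more closely than Ciita (0.86), Cd74 (0.85), H2-DMa (0.75), H2-DMb2 (0.66) or H2-DMb1 (0.63). In gingiva it followed H2-Eb1 (0.96), H2-Ab1 (0.93), H2-DMb1 (0.91), H2-DMb2 (0.89), Ciita (0.85), H2-DMa (0.71) and Cd74 (0.66). Ranked for single genes, which was done after the values had been seen, the genes closest to H2-DMb2 in bone were Cd22, Tnfrsf13c, Fcmr and Cd2 (0.96 each), of which the first 3 encode surface receptors of B cells. Closest to H2-DMb1 in bone was Fam111a (0.97), followed by Mrgpra2a, Haus1 and Bub1b (0.96 each). H2-DMb1 and H2-DMb2 followed each other at r = 0.53 in bone. In Tra 3 of bone H2-DMb1 was at 12.25 CPM, beside 17.97 to 26.2 CPM in the other bone libraries. That library weighs on the r values of H2-DMb1, which were not computed without it.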
